A study of Homo sapiens with 52 samples.

Results

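The comparison described here is that of PMD-Sen day 0, WI-38 cells collected at the end of a 24 h treatment with 0.009% sodium dodecyl sulfate (SDS), with Untreated, young WI-38 cells that received no treatment. Its members are all genes with a mean normalised count of at least 10 over the 4 libraries of this comparison, which are 14331 of the 59408 genes listed, of which 28581 had any count. WI-38 is a diploid fibroblast line from human embryonic lung of wild-type genotype, which all groups share. SDS, a detergent, was used to damage the plasma membrane. The study sequenced RNA in 52 libraries in 26 groups of 2, and 3 other groups are used here for direct comparisons: PMD-Sen day 1, collected 1 day after the SDS was washed away, DDR-Sen day 0, collected after 24 h in 250 nM doxorubicin (DXR), which damages DNA, and Ca-Sen day 0, collected after 24 h in medium with 75 mM KCl, which depolarises cells and lets calcium in. Each group is a population of 1 cell line, and no source used here names a batch. In such bulk samples a change in the number of cells of a state and a change in the RNA per cell cannot be told apart.

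Values are normalised counts, that is, reads of a gene in a library divided by that library's size factor, so they compare libraries for 1 gene but not genes with each other. Changes are log2 fold changes with their standard error (SE) from limma, and a gene is said to have risen or fallen where its Benjamini-Hochberg adjusted p was under 0.05. The labels do not say whether the 2 samples of a group came from separate cultures, while the methods call them independent, and if they did not, the p-values measure technical spread only. The deposited tables hold means over 4 libraries, from which the reads of each library were recovered as whole numbers. The recovered libraries cannot be tied to replicate numbers, so they are given as the larger and then the smaller library of a group. They held 18598511 and 15032808 counted reads in untreated cells and 23249427 and 21974175 on day 0 of SDS. For 77 of the 14331 genes, most of them very abundant, no single split of the reads was found, and these were left out of the test. Some of them are described by their group means, with a test at the most distant split. This is the split whose libraries lay furthest apart among those less than 2-fold apart. Where too many splits were possible to try, a split with libraries 2-fold apart was taken. Wider splits were not tested, so the p-values at the most distant split are not upper limits. Another 165 genes, ANXA1 among them, had several splits but only 1 with libraries less than 2-fold apart. They were tested at that split, so the closeness of their SDS libraries is assumed.

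Cells read stress at their membranes and in protein folding through several pathways. The unfolded protein response (UPR) detects misfolded protein or altered lipid in the endoplasmic reticulum (ER) through the sensors IRE1, PERK and ATF6, which raise ER chaperones and the machinery that degrades ER proteins. PERK is also among the kinases that start the integrated stress response (ISR), in which phosphorylation of a translation factor slows protein synthesis while the transcription factor ATF4 is made and turns on genes for amino acid supply, tRNA charging and, through CHOP (the product of DDIT3), cell death. Proliferating fibroblasts express genes for DNA replication and mitosis that are shut off by p53 and the DREAM complex when the cycle stops, and a flat, spread fibroblast expresses actin and contractile genes through the factors SRF and YAP.

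Stretches of 250 bases before the transcription start site are printed for members of the groups that changed most, because the known binding letters of these programmes lie in them. They are RefSeq sequences of GRCh38.p14, written 5′ to 3′ on the strand of the gene, with the letters that match a motif in capitals. HSPA5 encodes BiP, the main ER chaperone, and its promoter at chr9:125241344-125241593 on the minus strand holds the ER stress element, which ATF6 and XBP1 bind together with NF-Y.
HSPA5: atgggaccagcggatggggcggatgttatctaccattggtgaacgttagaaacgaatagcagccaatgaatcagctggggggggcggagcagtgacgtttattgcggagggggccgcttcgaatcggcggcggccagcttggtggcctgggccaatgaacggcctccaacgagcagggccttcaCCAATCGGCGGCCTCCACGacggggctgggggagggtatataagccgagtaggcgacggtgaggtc
XBP1 encodes the factor that IRE1 activates by splicing, and its promoter at chr22:28800570-28800819 on the minus strand holds the same element.
XBP1: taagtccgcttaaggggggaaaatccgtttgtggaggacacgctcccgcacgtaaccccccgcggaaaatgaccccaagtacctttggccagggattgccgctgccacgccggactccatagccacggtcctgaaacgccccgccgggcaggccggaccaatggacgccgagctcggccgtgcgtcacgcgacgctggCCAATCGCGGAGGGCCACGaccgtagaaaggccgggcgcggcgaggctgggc
CHAC1 encodes an enzyme that degrades glutathione and is a target of ATF4, and its promoter at chr15:40953221-40953470 on the plus strand holds, on the opposite strand, the ATF4 element TGATGNAAN.
CHAC1: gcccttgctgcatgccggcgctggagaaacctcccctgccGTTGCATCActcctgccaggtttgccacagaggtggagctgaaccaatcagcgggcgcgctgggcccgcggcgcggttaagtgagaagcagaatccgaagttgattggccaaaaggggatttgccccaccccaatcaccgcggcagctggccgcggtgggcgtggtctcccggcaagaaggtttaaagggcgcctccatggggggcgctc
CDC20 encodes an activator of the ubiquitin ligase that ends mitosis, and its promoter at chr1:43358731-43358980 on the plus strand holds 2 matches to TTTGAA, the letters of the cell cycle homology region (CHR) that DREAM binds, 1 on each strand.
CDC20: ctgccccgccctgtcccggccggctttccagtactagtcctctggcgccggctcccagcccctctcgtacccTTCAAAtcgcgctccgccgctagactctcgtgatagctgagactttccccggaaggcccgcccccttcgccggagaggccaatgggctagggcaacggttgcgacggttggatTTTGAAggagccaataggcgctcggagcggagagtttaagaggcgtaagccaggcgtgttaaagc

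Each motif was searched on both strands in windows from 250 bases before to 50 after the start site, of which the table held 27305, with the first window listed taken for a symbol. The ER stress element, which was added to the search after the values were seen, was in 7 of 23 UPR promoters (30.4%) against 22 of all promoters (0.0806%). Among 28 promoters of the ISR list 6 held the ATF4 element (21.4%, against 3.67% of all). TTTGAA was in 11 of 41 cell cycle promoters (26.8%, against 15.4%), and the E2F site TTTCCCGC in 7 of 41 (17.1%, against 1.66%). Other matches were the heat shock element GAANNTTC in 7 of 18 heat shock promoters (38.9%, against 6.87%), the antioxidant response element TGACNNNGC in 4 of 16 NRF2 promoters (25.0%, against 13.6%), the metal response element TGCNCNC in 5 of 6 metallothionein and zinc promoters (83.3%, against 55.2%), the sterol response element TCACNCCAC in 1 of 24 (4.2%, against 1.15%) and the AP-1 site TGANTCA in 1 of 22 immediate early promoters (4.5%, against 7.76%). These are matches of letters, and no binding was measured.

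After 24 h in SDS the RNA of a large part of the expressed genes differed from that of untreated cells. Of 14254 tested genes 7424 passed the test (52.1%), 3735 of them higher (26.2%) and 3689 lower (25.9%). Of these, 1220 rose and 1368 fell by at least 1 on the log2 scale, and 301 rose and 374 fell by at least 2. The median change of all tested genes was 0.00965. With so many genes past the threshold, the counts of each gene list below are read against these shares. Within a group the 2 libraries lay close, at a median of 0.107 apart on the log2 scale in untreated cells and 0.102 on day 0 of SDS for genes with a mean of at least 100, yet further than sampling of reads alone would put them (median chi-square 1.70 and 2.13, against 0.455), so they are not copies of 1 library.

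**Figure D1:**
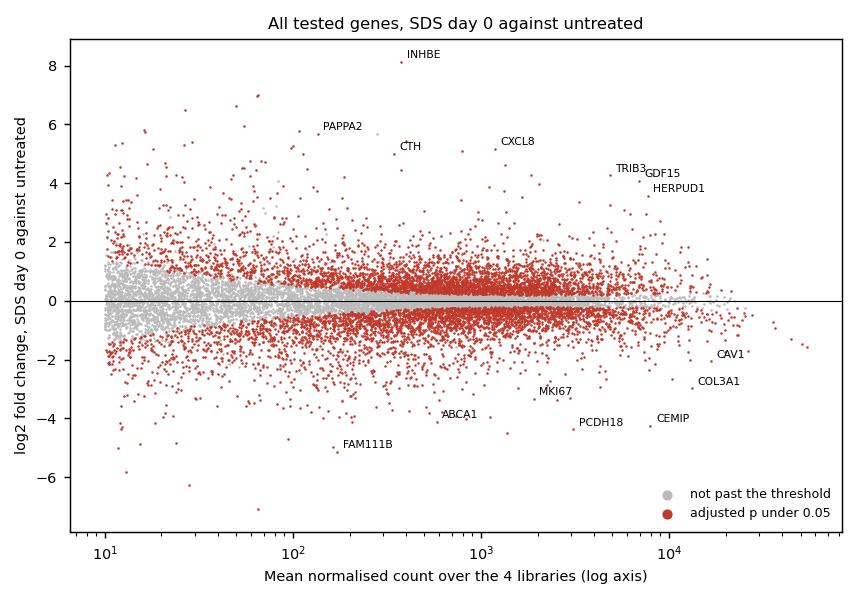
Every tested gene is a point, with its mean normalised count over the 4 libraries on a log axis and its log2 fold change of SDS day 0 against untreated cells, in red where the adjusted p was under 0.05. Genes of the stress response such as TRIB3, GDF15 and HERPUD1 lie high among the abundant genes, and CEMIP, PCDH18 and COL3A1 lie low.

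The ISR list rose almost as a whole. Of its 34 genes 32 had a mean of at least 10 and 29 were tested, of which 28 rose and 1 fell, with a median log2 fold change of 2.26. ATF4, the transcription factor at its centre, had normalised counts of 4330 and 4170 in the untreated libraries and 12700 and 12900 in the SDS libraries, a log2 fold change of 1.59 (SE 0.0726, adjusted p = 1.01e-05). DDIT3 was at 192 and 178 in untreated cells and at 2620 and 2290 in SDS (3.72, SE 0.142, adjusted p = 6.31e-06). TRIB3, a pseudokinase that dampens ATF4 and CHOP, went from 523 and 427 to 9360 and 9040 (4.27, SE 0.109, adjusted p = 2.25e-06). In each of these genes the SDS libraries lay well above both untreated ones, and the libraries of a group lay near each other. How many of all tested genes have groups apart in this way was not counted. Here and below, such separation only describes the genes named. ATF3, a repressing partner of ATF4, was less even, at 252 and 269 before and 3630 and 2460 after treatment (3.52, SE 0.234). PPP1R15A, which lets translation resume by dephosphorylating the translation factor, rose from 2470 and 3070 to 14300 and 11800. ATF5 was the member that fell, from 756 and 746 to 639 and 629 (log2 fold change -0.25, adjusted p = 0.0371), and without any 1 of the 4 libraries its adjusted p was between 0.0964 and 0.141.

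Enzymes of amino acid supply made up the most uniform group of the ISR, with 10 of 10 higher and a median of 2.32. CTH, which makes cysteine from cystathionine, had 21.1 and 19.3 in untreated cells and 641 and 692 in SDS (5.00, SE 0.277, adjusted p = 1.43e-05). PSAT1 of serine synthesis rose from 1600 and 884 to 9720 and 10800, and MTHFD2 of mitochondrial folate metabolism from 1830 and 1390 to 7710 and 8720. ASNS, asparagine synthetase, was low in this table, at 24.3 and 11.6 against 196 and 206. In all 4 genes both SDS libraries were above both untreated libraries, and PSAT1 and ASNS were the ones whose untreated libraries differed most from each other.

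Amino acid transporters rose in 5 of 5 tested genes, with a median of 2.26. SLC7A5, the light chain of the large neutral amino acid transporter, went from 2790 and 2010 to 14800 and 16200, and its heavy chain SLC3A2 from 3280 and 3250 to 16300 and 15000. SLC7A11, the cystine importer, had no single split, and its mean rose from 5370 to 28400 (2.35 at the most distant split, adjusted p = 0.000181). SLC38A2 was at means of 26200 and 30900 and did not pass in the same way (adjusted p = 0.457). SLC6A9, a glycine transporter outside the list, went from 230 and 131 to 3480 and 3500 (4.29, SE 0.198).

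The other targets of the ISR list rose in 5 of 5 tested genes, with a median of 2.10. GDF15, a stress hormone that acts on the brainstem, was at 797 and 728 in untreated cells and at 13800 and 12300 in SDS (4.09, SE 0.0953, adjusted p = 1.71e-06). STC2, a secreted glycoprotein, rose from a mean of 9440 to 38200 (1.97 at the most distant split, adjusted p = 0.000133). VLDLR, a lipoprotein receptor, rose from 230 and 188 to 1630 and 1800. Outside the list and named for their differences from other treatments, INHBE, an activin chain made under ER stress, was nearly absent at 10.6 and 0.00 and then at 738 and 757 (8.13, SE 0.892, adjusted p = 0.000219), and it reached the mean of 10 through the SDS libraries. ADM2, a peptide of the calcitonin family, went from 155 and 63.1 to 2530 and 2610 (4.63, SE 0.287). In GDF15, VLDLR, INHBE and ADM2 both SDS libraries lay above both untreated ones, although the untreated libraries of INHBE and ADM2 were far apart. STC2 had no single split, so its SDS libraries are not known. SESN2 and FGF21, also in the list, had means of 0.0 and 1.28 in this table and were not tested.

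Enzymes that charge tRNAs in the cytosol rose in 14 of 19 tested genes, fell in 0 and had a median of 1.13. GARS1 for glycine rose most, from 5260 and 4950 to 17900 and 18200 (1.82, SE 0.0757, adjusted p = 8.04e-06), and WARS1 for tryptophan went from 4200 and 3370 to 9960 and 9930. The list was split, since the beta chain of the enzyme for phenylalanine (FARSB, -0.13) and the enzymes for histidine (HARS1, -0.13), lysine (KARS1, 0.16) and glutamine (QARS1, 0.04) did not pass, with adjusted p between 0.106 and 0.735. CARS1 rose with uneven SDS libraries, at 736 and 1510 against 420 and 324.

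**Figure D2:**
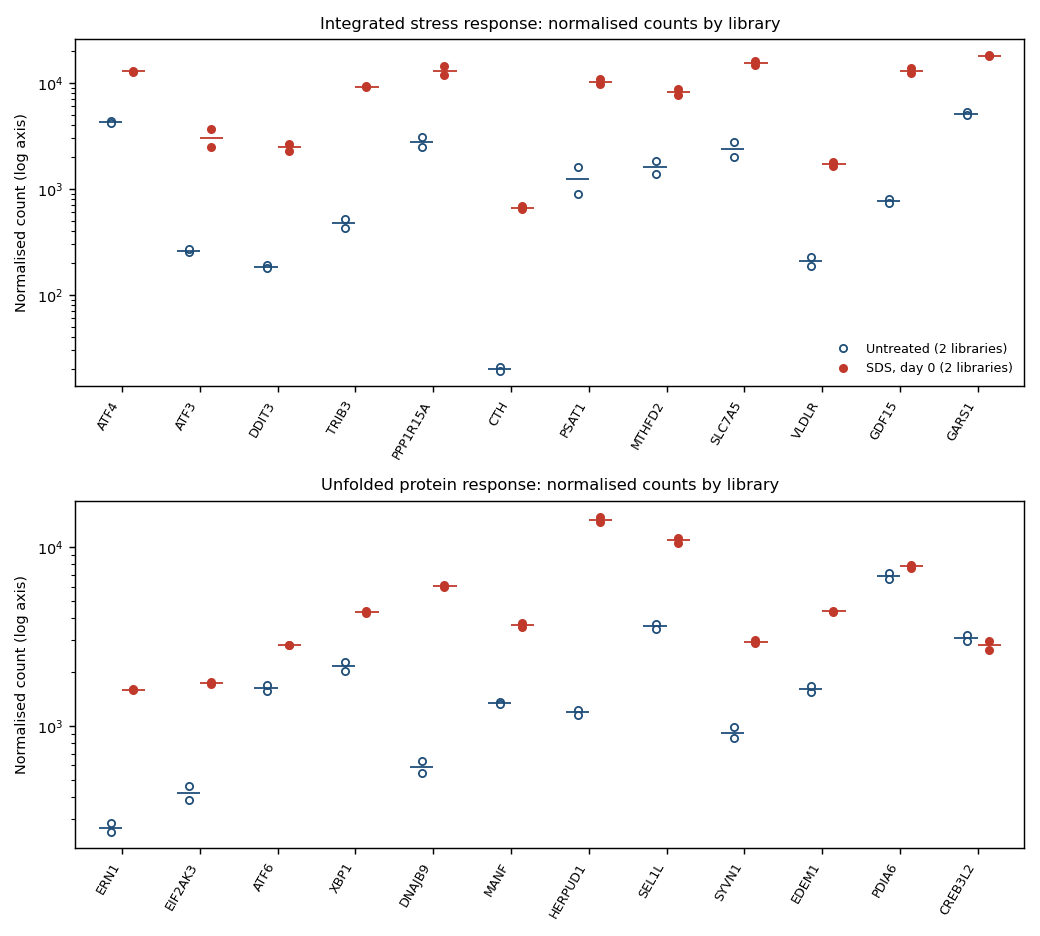
Normalised counts on a log axis for 12 genes of the integrated stress response list with GARS1 of the tRNA synthetases (top) and of the unfolded protein response (bottom), open circles for the 2 untreated and filled circles for the 2 SDS day 0 libraries, with short lines at the group means. In all but PDIA6 and CREB3L2 the SDS libraries stand clear of the untreated ones.

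The UPR rose in 17 of 19 tested genes and fell in 0, with a median of 1.27. All 3 sensors rose. ERN1, which encodes IRE1, went from 285 and 254 to 1580 and 1600 (2.55, SE 0.106, adjusted p = 8.04e-06), EIF2AK3, which encodes PERK, from 383 and 462 to 1720 and 1750, and ATF6 from 1570 and 1680 to 2840 and 2840. XBP1, whose promoter is printed above, rose from 2280 and 2020 to 4370 and 4290 (1.01, SE 0.0828). CREB3L2, a related membrane-bound factor, was at 3220 and 2960 and then 2640 and 2980 and did not pass (-0.14, adjusted p = 0.222). Gene-level counts do not separate spliced from unspliced XBP1.

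Chaperones and folding enzymes of the ER rose in 9 of 10 tested genes, with a median of 1.14. HSPA5 had no single split, and its mean rose from 24300 to 176000 (2.77 at the most distant split, adjusted p = 0.000134). DNAJB9, a co-chaperone of BiP that represses IRE1, went from 543 and 633 to 6140 and 5930 (3.37, SE 0.0970, adjusted p = 2.73e-06). MANF, a secreted ER protein, rose from 1360 and 1320 to 3760 and 3550. Folding enzymes moved less, with PDIA4 at 0.66 (adjusted p = 0.000526) and PDIA6 at 0.18 (adjusted p = 0.0896). HSP90B1 rose from a mean of 26200 to 47200 (0.815 at the most distant split, adjusted p = 0.00783), whereas CALR, calreticulin, had means of 33300 and 37700 and did not pass (adjusted p = 0.477). ER degradation rose in 4 of 4 genes, with HERPUD1, a ubiquitin-like scaffold, from 1230 and 1150 to 14700 and 13700 (3.57, SE 0.0825, adjusted p = 1.71e-06) and its partner SEL1L from 3710 and 3490 to 11200 and 10500.

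Heat shock genes of the cytosol did not follow the ER. Of 17 tested genes 8 rose and 6 fell, with a median of 0.23 and a range from -1.18 to 0.93. DNAJB4 rose from 1590 and 1630 to 3200 and 2930, HSPB8, a small heat shock protein of chaperone-assisted autophagy, from 575 and 559 to 1250 and 934, and HSPH1 from 3790 and 3750 to 6360 and 5620. HSPB1 fell from 12300 and 12300 to 5360 and 5480 (-1.18, SE 0.0713, adjusted p = 1.82e-05), and HSP90AA1 fell by 0.47. HSPA1A and HSPA1B, the most inducible members, were listed at 0.0 in this table.

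Proteasome genes moved little, with 6 of 31 higher, 3 lower and a median of -0.02. The extremes, PSMC4 at 5.10 and PSMB3 at -3.17, are 2 of 58 genes whose libraries within a group lay more than 4-fold apart in at least 3 of 25 groups, and PSMB3 was at 44.0 in the larger and 646 in the smaller SDS library. With the spread taken from all groups neither passed, at adjusted p = 0.139 for PSMC4 and 0.163 for PSMB3 in limma. Of the lysosome and autophagy list, 12 of 22 rose and 3 fell, with a median of 0.39. The lowest of the 3, SQSTM1, an autophagy receptor, was at 2730 and 2470 and then at 974 and 694 (-1.65), and it is also one of those 58 genes with uneven libraries (adjusted p = 0.353 with the spread of all groups). MAP1LC3B, a coat protein of autophagosomes, rose from 2780 and 2980 to 14700 and 13300 (2.28, SE 0.0844, adjusted p = 6.06e-06), NPC1, which exports cholesterol from lysosomes, from 649 and 950 to 3270 and 3350, and WIPI1 of early autophagosomes from 816 and 932 to 2630 and 2560. TFEB, a master factor of lysosomal genes, fell from 110 and 117 to 41.5 and 48.0 (-1.34, adjusted p = 0.00140).

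Cell cycle genes fell in 42 of 50 tested members and rose in 4, with a median of -2.05. Mitosis was the most uniform part, with 19 of 19 lower and a median of -2.46. KIF20A, a kinesin of cytokinesis, went from 1170 and 1150 to 59.4 and 122 (-3.78, SE 0.244, adjusted p = 2.44e-05), and MKI67, the proliferation marker Ki-67, from 3870 and 3030 to 248 and 477 (-3.33, SE 0.252, adjusted p = 4.32e-05). CDC20, with the promoter above, went from 1470 and 1330 to 121 and 255. In these 3 genes the larger SDS library was the lower one, but both lay below both untreated libraries. LMNB1, which encodes lamin B1 and is often lost in senescence, fell from 1070 and 909 to 58.6 and 85.4 (-3.81, SE 0.213, adjusted p = 1.48e-05).

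DNA replication genes fell in 16 of 17, with a median of -1.54. MCM5, a subunit of the replicative helicase, fell from 1380 and 1170 to 261 and 296, and TYMS, thymidylate synthase, from 740 and 705 to 136 and 146 (-2.36, SE 0.121). CDC6, which loads that helicase, was the exception and rose from 596 and 519 to 854 and 1120 (0.80, SE 0.150, adjusted p = 0.00292). Among the regulators E2F8 fell from 68.6 and 41.2 to 4.88 and 5.33, having passed the filter through the untreated libraries, while E2F7, its repressor relative, rose from 799 and 754 to 2750 and 3170 (1.93, SE 0.0974, adjusted p = 1.17e-05). CDC6 and E2F7 thus moved against the list by more than the spread of their libraries.

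Inhibitors of cyclin-dependent kinases were mixed. CDKN2B, p15, rose from 254 and 197 to 523 and 734 (1.45, adjusted p = 0.00105), whereas CDKN2A, p16 and ARF, was at 471 and 468 and then 504 and 445 (0.01, adjusted p = 0.919). CDKN1A, p21, had no single split in SDS. Its mean was 17100 in untreated cells and 22500 in SDS, which did not pass at the most distant split (adjusted p = 0.317). Of 22 tested p53 targets 7 rose and 9 fell, with a median of 0.02. GADD45A rose from 2150 and 1940 to 6900 and 5900 (1.64), PMAIP1, the death protein NOXA, from 1250 and 1550 to 3550 and 3620 and TNFRSF10B, the death receptor DR5, from 4430 and 4260 to 10900 and 10300. FDXR fell from 818 and 708 to 367 and 363 (-1.07, adjusted p = 0.000140), and TP53I3 and BTG2 fell by 0.88 and 0.83. In the BCL2 family 4 of 12 rose and 3 fell, among them BCL2, from 95.0 and 84.9 to 224 and 167, and BID, which fell by 0.73.

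**Figure D3:**
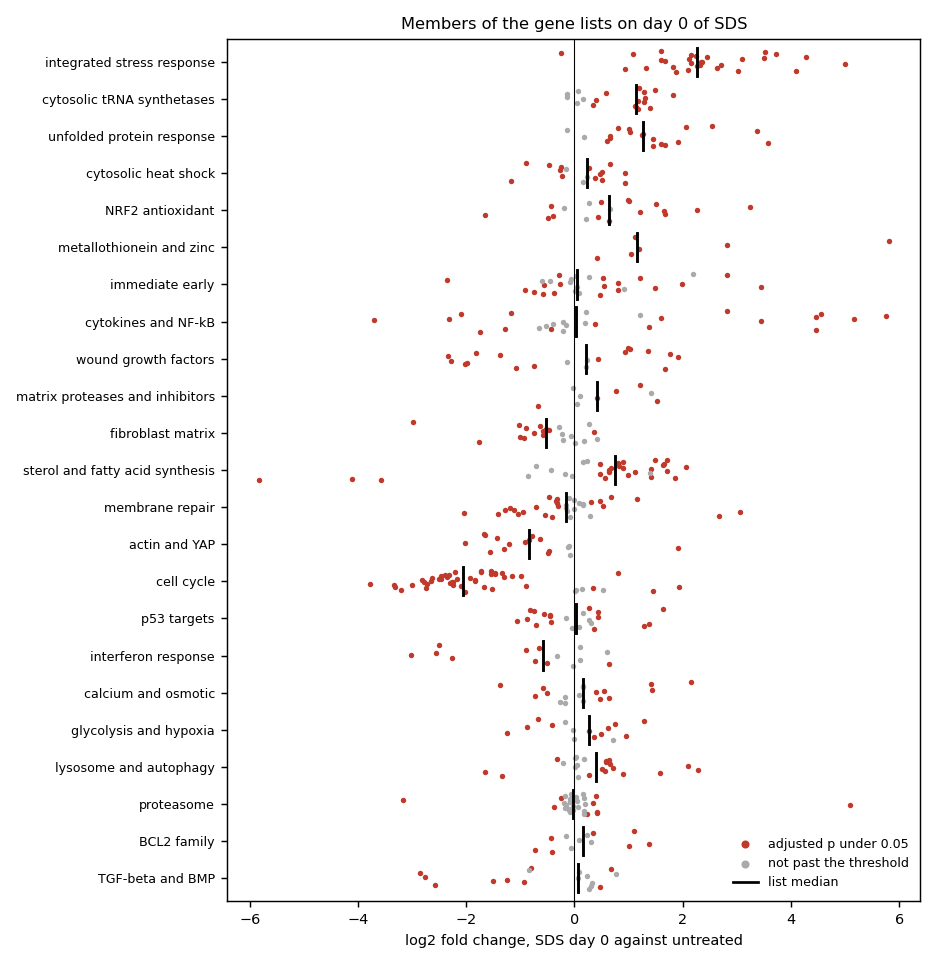
Each point is a tested gene of a list at its log2 fold change of SDS day 0 against untreated cells, red where the adjusted p was under 0.05 and grey otherwise, and black bars are list medians. The integrated stress response, tRNA synthetases and unfolded protein response lie to the right of 0, the cell cycle and actin lists to the left, and p53 targets, cytokines and immediate early genes on both sides.

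Genes of the actin cytoskeleton fell. In the contractile and SRF group 9 of 9 were lower, with a median of -1.21. VCL, vinculin of focal adhesions, went from 21400 and 20200 to 4640 and 5600 (-2.03, SE 0.104, adjusted p = 1.21e-05), ACTA2, smooth muscle actin, from 5920 and 6460 to 1580 and 2350, and SRF itself from 2450 and 2560 to 1090 and 1080. ACTB and ACTG1, the cytoplasmic actins, fell from means of 160000 to 45900 (-1.87 at the most distant split, adjusted p = 0.00203) and of 120000 to 36100 (-1.81, adjusted p = 0.00173). LMOD1, an actin nucleator of contractile cells, was among the 10 largest falls, from 2160 and 2030 to 125 and 142 (-3.97, SE 0.125). YAP targets were mixed, with 4 of 8 lower and ANKRD1 higher, from 107 and 198 to 602 and 468 (1.91, adjusted p = 0.000684), while CCN1 and CCN2 were at -0.11 and -0.12 and did not pass.

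Membrane repair genes showed no shared direction. Of 33 tested genes 7 rose and 15 fell, with a median of -0.16. Of the ESCRT subunits, which bud off damaged membrane, 4 were higher and 5 lower of 15, near the shares of all genes, with log2 fold changes from -0.47 to 1.16. CHMP2B rose most, from 613 and 641 to 1450 and 1350 (1.16, SE 0.0864, adjusted p = 4.04e-05). CHMP4B, whose protein forms the ESCRT-III filament, was at 2510 and 2530 in untreated cells and 2540 and 2470 in SDS (-0.01, SE 0.0695, adjusted p = 0.927), and CHMP4A had a mean of 0.993 and was not tested. DYSF, dysferlin, which patches muscle membrane, was low but rose from 9.50 and 15.4 to 99.3 and 108 (3.05, SE 0.354, adjusted p = 0.000285), and SYT7, a calcium sensor of lysosome fusion, from 17.9 and 3.86 to 61.1 and 59.6 (2.67, adjusted p = 0.00450). Caveolae went the other way. CAV1, their main coat protein, fell from 29100 and 25000 to 5920 and 7120 (-2.05, SE 0.116, adjusted p = 1.50e-05), CAV2 from 5310 and 5160 to 1820 and 2130, and CAVIN1 from a mean of 47500 to 23100 (-1.10 at the most distant split, adjusted p = 0.00841). Of the annexins ANXA11 and ANXA6 fell by 1.29 and 1.20, and ANXA1 rose by 0.52.

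Matrix genes fell more often than they rose, with 12 of 21 tested lower, 1 higher and a median of -0.52, and 10 of the 31 members had no single split of their reads. COL3A1, a fibrillar collagen, went from 26000 and 20800 to 2410 and 3600 (-2.98, SE 0.188, adjusted p = 2.19e-05), LOXL1, which crosslinks elastin, from 5590 and 5060 to 1440 and 1680, and COL5A2 from 23000 and 21600 to 10600 and 11400. Against this, LOX, which crosslinks collagen, rose from a mean of 9070 to 35900 (1.95 at the most distant split, adjusted p = 0.000146), and the means of COL1A2 were 147000 and 220000 (adjusted p = 0.197). Of other abundant matrix genes without a single split, COL6A1 fell (-0.712 at the most distant split, adjusted p = 0.0455). FN1, SPARC, FBN1, COL4A2, COL6A2 and COL6A3 did not pass, with adjusted p between 0.329 and 0.983. COL1A1 had no split that could be tested. The counts above therefore describe only the members with a single split. CEMIP, a hyaluronan-degrading protein, was among the 10 largest falls, from 15700 and 14600 to 900 and 694 (-4.25, SE 0.122, adjusted p = 2.73e-06). Of 9 proteases and inhibitors tested 4 rose and 1 fell, ADAMTS5 from 303 and 301 to 1070 and 699 and MMP1 from 2780 and 4680 to 8360 and 8410, while TIMP2 fell by 0.67.

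Sterol and fatty acid genes parted by role. Of 16 sterol enzymes 12 rose and 0 fell, with a median of 0.86, 1 of them (FDFT1) having reached the mean of 10 through SDS, and of 5 sensing and uptake genes 4 rose. MSMO1 of cholesterol synthesis went from 1050 and 679 to 2960 and 4330 (2.07, SE 0.227, adjusted p = 0.000221) and INSIG1, a feedback sensor of the pathway, from 711 and 413 to 1440 and 2300. ELOVL6, a fatty acid elongase, rose from 876 and 726 to 2910 and 2870. The genes of sterol efflux, targets of the receptor LXR, fell in 3 of 3. ABCA1, the cholesterol exporter, went from 1190 and 1000 to 83.0 and 47.1 (-4.11, SE 0.251, adjusted p = 1.94e-05), and MYLIP, which marks the LDL receptor for decay, from 172 and 183 to 14.7 and 14.2 (-3.58). ABCG1, which passed the filter through the untreated libraries, was at 16.9 and 34.7 in untreated cells and at 0.00 in both SDS libraries, at least 20.3-fold lower when SDS is set to a floor of 3 reads over the group.

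Redox genes of the NRF2 list rose in 11 of 19 and fell in 4, with a median of 0.63, and SQSTM1 is again among the falls. HMOX1, heme oxygenase, rose most, from 720 and 1220 to 8940 and 8590 (3.25, SE 0.201, adjusted p = 2.03e-05). AKR1C1 went from 419 and 457 to 2370 and 1840 and MAFG, a partner of NRF2, from 1230 and 1410 to 4440 and 3990. Both ferritin chains rose by group means, FTH1 from 15500 to 36100 (1.21, adjusted p = 0.000622) and FTL from 41900 to 93200 (1.15, adjusted p = 0.000597). NQO1, a widely used NRF2 target, was at 6530 and 8920 and then 6430 and 6980 and did not pass (adjusted p = 0.284), and TKT and PRDX1 fell by 0.49 and 0.44. Of 11 genes for metallothioneins and zinc 6 had a mean of at least 10, and these rose. MT2A went from 7280 and 9750 to 16400 and 22500 (1.19, adjusted p = 0.000960) and MT1X from 20.1 and 18.0 to 131 and 147. MT1F, which reached the mean of 10 only through SDS, was at 0.00 in both untreated libraries and at 32.6 and 32.0 in SDS, at least 18.6-fold higher against the same floor.

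Cytokines moved apart from each other. Of 34 genes 26 had a mean of at least 10, and 10 of these rose and 7 fell, with a median of 0.02. Of these rises 4, in CXCL2, CXCL3, CCL20 and IL1A, reached the mean of 10 through SDS alone and so had to differ, and the count is not read against the share of all genes. CXCL8, a neutrophil chemokine, went from 25.3 and 174 to 2710 and 1840 (5.17, SE 0.645, adjusted p = 0.000407), IL6 from 48.6 and 75.9 to 479 and 371 (2.82, SE 0.283, adjusted p = 0.000142) and PTGS2, the inducible enzyme of prostaglandin synthesis, from 19.0 and 55.3 to 860 and 562 (4.46, SE 0.571). Among those 4, CXCL2 went from 1.06 and 9.01 to 277 and 142 and IL1A from 1.06 and 1.29 to 45.6 and 36.5. The untreated libraries of CXCL8, CXCL2 and PTGS2 were several-fold apart, but both were below both SDS libraries. Falling were CCL2, a monocyte chemokine, from 500 and 746 to 48.8 and 42.7 (-3.71, SE 0.338, adjusted p = 9.21e-05), CXCL12 from 320 and 372 to 70.0 and 67.6 and CSF1, the macrophage growth factor, from 1930 and 2000 to 493 and 429 (-2.09, SE 0.0928). Of the subunits and feedback genes of NF-kB 2 of 10 were higher and 2 lower. Interferon targets fell in 7 of 11 and rose in 0, OAS3 from 310 and 176 to 26.9 and 32.0 (-3.02, adjusted p = 0.000616) and IFIT1 from 319 and 206 to 46.4 and 44.5. GBP1, an interferon-inducible GTPase outside the list, was among the 10 largest falls, from 1520 and 1590 to 96.9 and 95.1 (-4.01, SE 0.132).

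Growth factors of the wound list rose in 8 of 19 tested genes and fell in 8, with a median of 0.22. Ligands of the EGF receptor rose in 4 of 4 that passed the filter, for example EREG from 300 and 376 to 818 and 877, while 2 of 6 were under it. In the group of FGF, VEGF, PDGF and HGF genes 3 of 11 rose and 6 fell, with a median of -1.38. VEGFA went from 1200 and 988 to 4290 and 3940 (1.91, SE 0.106, adjusted p = 1.45e-05) and FGF2 from 2890 and 3480 to 11300 and 10300 (1.77). FGF7 and HGF, which fibroblasts send to epithelium, fell from 2490 and 3280 to 552 and 576 (-2.34, adjusted p = 1.67e-05) and from 5550 and 4840 to 1150 and 1420 (-2.02). Among TGF-beta and BMP genes 7 of 17 fell and 2 rose, BMP4 from 935 and 604 to 96.9 and 116 (-2.85) and the BMP feedback gene SMAD6 from 429 and 490 to 71.6 and 81.8 (-2.57). PAPPA2, a protease that frees insulin-like growth factors, was among the 10 largest rises, from 4.22 and 5.15 to 278 and 256 (5.68, SE 0.429, adjusted p = 4.28e-05), and it reached the mean of 10 through SDS.

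**Figure D4:**
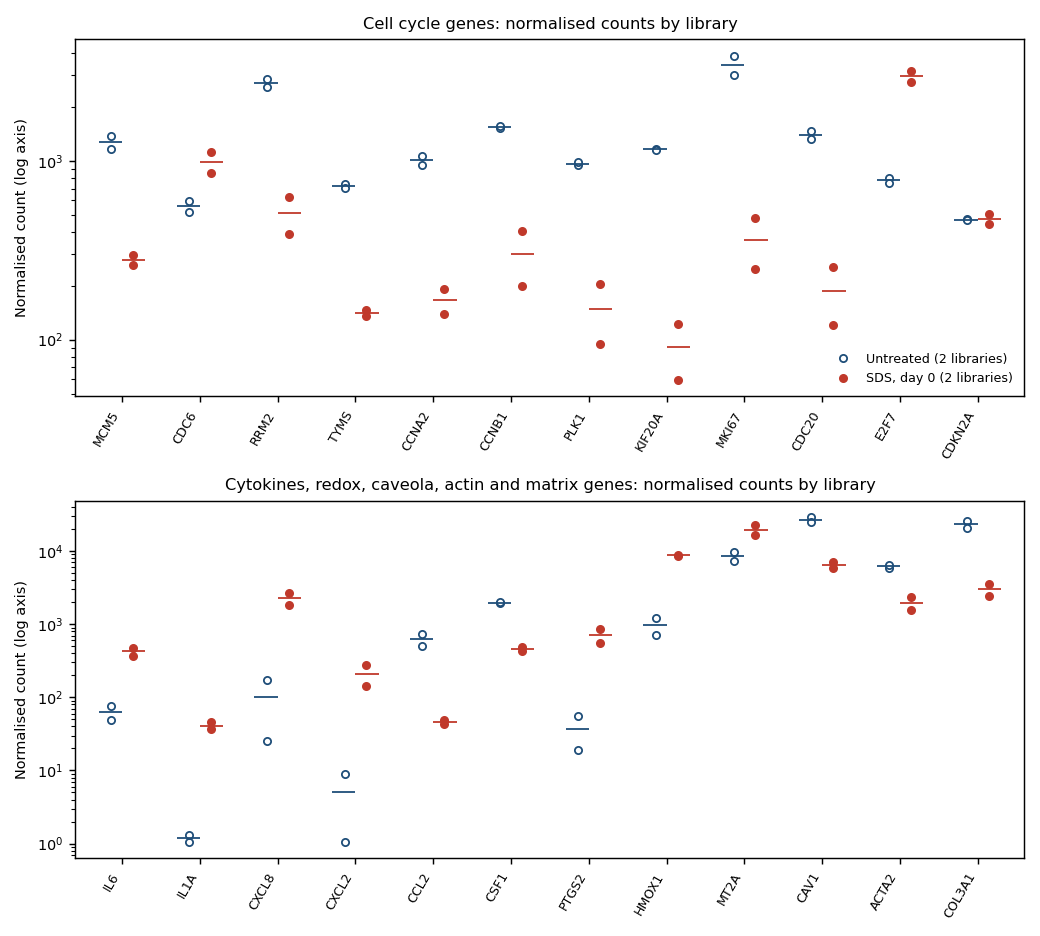
Normalised counts on a log axis of 12 cell cycle genes (top) and of 12 cytokine, redox, caveola, actin and matrix genes (bottom) in the 2 untreated (open) and 2 SDS day 0 libraries (filled), with short lines at the group means. Most cell cycle genes sit lower in SDS, with CDC6 and E2F7 higher and CDKN2A overlapping, and IL6 and CXCL8 sit higher while CCL2 and CSF1 sit lower.

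The largest changes among genes with a mean of at least 100 and libraries of a group less than 2-fold apart were found in genes of many roles. Outside the gene lists, the 10 largest rises held ANGPTL4, which inhibits lipoprotein lipase, from 212 and 279 to 3310 and 4320 (3.97, SE 0.197, adjusted p = 1.11e-05), UNC5B, a netrin receptor, from 164 and 116 to 2140 and 1990 (3.88, SE 0.165), and ARFGEF3, which reached the mean of 10 through SDS, from 7.39 and 5.15 to 204 and 238. The 10 largest falls held FAM111B, a protease expressed in replicating cells that passed the filter through the untreated libraries, from 399 and 270 to 7.33 and 11.6 (-5.13, SE 0.512), IRAG1, a substrate of cGMP-dependent kinase in smooth muscle, from 2450 and 2780 to 101 and 135 (-4.49, SE 0.167, adjusted p = 6.06e-06), PCDH18, a protocadherin, from 5690 and 6110 to 235 and 351 (-4.37, SE 0.158) and KCNK2, a potassium channel that stretch and lipids open, from 341 and 206 to 13.0 and 21.3 (-4.00). In these 7 genes the SDS libraries and the untreated libraries did not overlap, which the choice of genes required.

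Immediate early genes, which respond within minutes to growth factors and calcium, were 10 higher and 8 lower of 29, with a median of 0.05. FOSB rose from 24.3 and 18.0 to 182 and 126, KLF4 from 223 and 211 to 926 and 792 and DUSP1, a MAP kinase phosphatase, from 2350 and 2930 to 8540 and 6270. FOS was at 24.3 and 24.5 in untreated cells and at 207 and 59.6 in SDS (2.19, adjusted p = 0.0525). EGR1 was at 1060 and 798 and then at 1890 and 405 (-0.07, adjusted p = 0.936), so its SDS libraries lay on either side of the untreated ones. Calcium handling rose in 5 of 10 and fell in 3. RCAN1, a target and inhibitor of calcineurin, went from 2530 and 2810 to 12000 and 11800 (2.16, SE 0.0816, adjusted p = 6.06e-06), and ATP2B1, a plasma membrane calcium pump, from 2300 and 2310 to 6310 and 6020 (1.42), while ATP2B4, another such pump, fell from 16400 and 15800 to 6250 and 6220 (-1.37). Osmotic and ion genes were 2 higher and 1 lower of 8, and the myo-inositol importer SLC5A3 fell by 0.73. Glycolysis and hypoxia genes were 7 higher and 4 lower of 15, with SLC2A3 up from 1790 and 1480 to 4240 and 3730 and ADM down from 3570 and 3360 to 1560 and 1370. Of 4 mitochondrially encoded mRNAs that could be split 3 fell, by 0.24 to 0.48.

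Of 9 markers of fibroblasts 9 had a mean of at least 10, and 5 of 6 tested ones fell, for example THY1 from 12700 and 12800 to 4150 and 5020. The untested ones, COL1A1, COL1A2 and VIM, had no single split, and COL1A1 had none that could be tested. Among them, VIM fell from a mean of 54000 to 34300 (-0.683 at the most distant split, adjusted p = 0.0253). COL1A2 was higher by its means, at 147000 and 220000, but did not pass (adjusted p = 0.197). Markers of other cell types were at or near 0. Of 20 markers of epithelium, endothelium, leukocytes and muscle only EPCAM and VWF had a mean of at least 10, EPCAM at 10.6 and 11.6 in untreated cells and 11.4 and 8.00 in SDS and VWF at 28.5 and 30.9 and then 42.3 and 30.2, and KRT5, CDH5, CD3E and MYOD1 were listed at 0.0. Since the stress genes SESN2, HSPA1A and HSPA1B were also listed at 0.0, such a value is not read as proof that the RNA was absent. Why these genes had no counts was not tested. RPLP0P2, a pseudogene among the 10 largest rises (22.2 and 12.9 against 792 and 763), can share reads with its parent RPLP0, whose means were 23700 and 26000, so its change is uncertain.

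Day 0 and 1 day after the wash were compared directly, without the untreated libraries, to ask which genes differed once SDS was gone. Of 14043 tested genes 8069 passed (57.5%), 4055 higher on day 0 (28.9%) and 4014 lower (28.6%). The ISR list was higher on day 0 in 28 of 29, with a median log2 difference of 2.69, and the UPR list in 17 of 19 (1.73). DDIT3, at 2620 and 2290 on day 0, had a mean of 65.5 on day 1 (log2 difference 5.18, SE 0.193, adjusted p = 4.83e-07), below its untreated mean of 185. TRIB3 had a mean of 316 on day 1 (4.87, SE 0.0833), and ADM2 of 22.7 (6.86, SE 0.231). Cell cycle genes were lower on day 0 in 41 of 50 (median -1.38), with MKI67 at a mean of 1770 on day 1 (-2.36), and all 19 mitosis genes were lower on day 0. IL6 was at a mean of 29.3 on day 1 (4.02, SE 0.325), and CCL2 at 341 (-2.86). GBP1 and RAB7B were among the 5 genes lowest on day 0 against day 1, at -3.84 and -4.24. The direct comparisons, here and with DXR and KCl below, share the SDS day 0 libraries with each other and with the comparison against untreated cells. They tested only genes with a mean of at least 10 over the SDS day 0 and untreated libraries. Genes expressed mainly in the other group were thus left out, so the shares of genes higher and lower can lean towards SDS day 0.

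Against 24 h of doxorubicin 7595 of 14038 genes differed (54.1%), 4201 higher in SDS (29.9%) and 3394 lower (24.2%). This comparison asked where the response to membrane damage differs from that to DNA damage at the same time. The ISR list was higher in SDS in 27 of 29 (median 2.38), the UPR list in 17 of 19 (1.27) and the tRNA synthetases in 15 of 19 (0.89). CTH was higher by 4.86 in SDS. INHBE had means of 747 in SDS and 1.40 in DXR and is among the tested genes only through its level in SDS. GDF15 was an exception, at means of 13100 and 11000 (0.28, SE 0.185, adjusted p = 0.231). Cell cycle genes were higher in SDS than in DXR in 35 of 50 (median 1.21) and lower in 6, MKI67 at a mean of 363 in SDS and 63.3 in DXR (2.43, SE 0.344, adjusted p = 0.00111) and CDC6 at 988 and 34.9 (4.80, SE 0.252). The p53 list was lower in SDS in 19 of 21 (median -1.37), with TP53I3 at -3.97, FDXR at -3.39 and MDM2, the main p53 inhibitor and target, at -1.37. CDKN1A was at a mean of 22500 in SDS and 72700 in DXR, not tested for lack of a single split. ABCA1 had a mean of 65.1 in SDS and 2740 in DXR (-5.40, SE 0.425).

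Against 24 h of KCl 9607 of 14252 genes differed (67.4%), 5170 higher in SDS (36.3%) and 4437 lower (31.1%). The question here was where membrane damage and calcium influx part. The ISR was again higher in SDS in 27 of 29 (median 1.65) and the UPR in 18 of 19 (1.67), but ATF4 itself differed by only 0.22, and CEBPB, another early factor, by -0.06 without passing. INHBE was at a mean of 747 in SDS and 267 in KCl (1.52, SE 0.103), and TRIB3 at 9200 and 844 (3.46, SE 0.0726, adjusted p = 1.52e-07). Cell cycle genes were lower in SDS in 22 of 50 and higher in 7, with 21 not passing (median -0.28). Cytokines were higher in SDS in 15 of 26, led by CXCL2 at 6.50. CXCL2, CXCL3, CCL20 and IL1A were among these 26 only through their level in SDS. The count is therefore not read against the share of all genes. Osmotic genes were lower in SDS in 7 of 8, with SLC5A3 at -3.98 and AKR1B1, which makes sorbitol, at -3.16. PRSS35, a serine protease homologue, was the lowest in SDS among genes with a mean of at least 100 and libraries of a group less than 2-fold apart, at means of 18.3 in SDS and 3740 in KCl (-7.64, SE 0.286, adjusted p = 9.20e-07), followed by GBP2 at 26.3 and 1420 (-5.81).

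**Figure D5:**
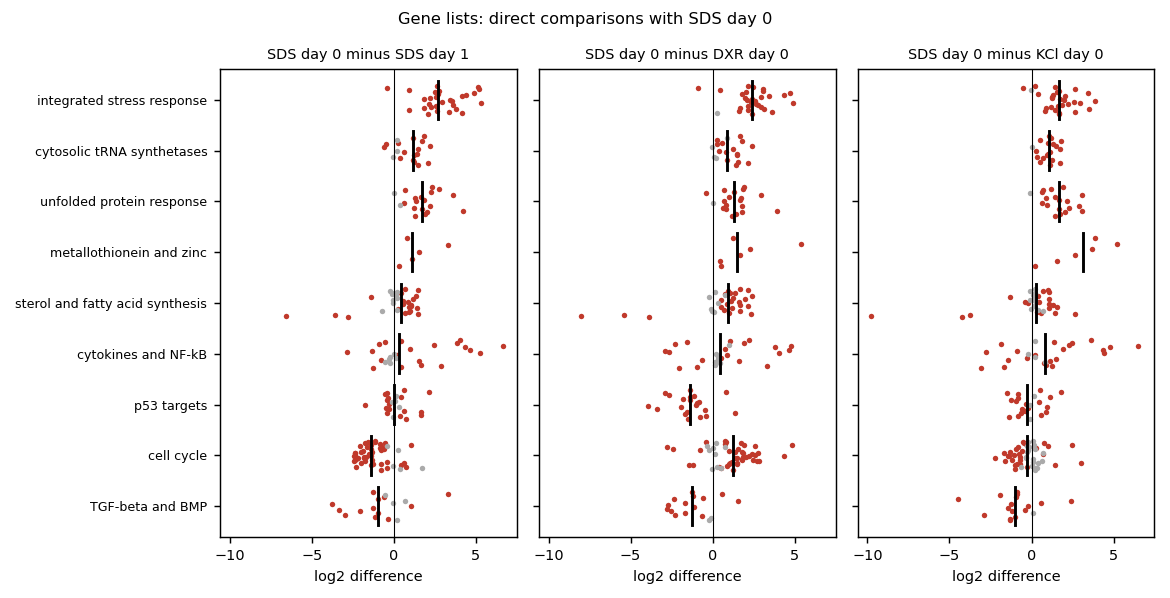
Points are tested genes of 9 lists at their log2 difference of SDS day 0 from SDS day 1 (left), DXR day 0 (middle) and KCl day 0 (right), red where the adjusted p was under 0.05, with black bars at list medians. The stress response lists lie to the right of 0 in all 3 panels, while the cell cycle list lies to the left against SDS day 1 and to the right against DXR, and p53 targets lie to the left against DXR.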

How the data were processed

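The study describes mRNA sequencing of WI-38 cells in paired-end reads. Per the labels, the submitters' processing notes name Trim Galore, HISAT2, HTSeq, featureCounts and DESeq2 and the builds GRCh38 and hg38, with no versions. The deposited tables, 52 files holding 25 distinct tables, give for each gene a signal that the authors computed with DESeq2, the mean over 2 treated and 2 untreated libraries of reads divided by size factors. They also hold the authors' fold changes and p-values, which were not used. No further columns of single samples were present (0). The row naming no gene (0.00168% of the mean counts) was left out.

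A mean of 4 libraries is a sum of whole reads times a fixed step per library. The steps and the reads were recovered from these means with Python 3.11.15, NumPy 2.4.6, pandas 2.3.3 and SymPy 1.14.0. Untreated libraries were identified as the pair that all 25 tables share. For PMD-Sen day 0, 14089 genes had 1 possible split, 165 had 1 whose libraries of a group lay within 2-fold, 75 had several and 2 had none. Among 39967 genes solved in separate sets of tables, 39966 had the same untreated reads (99.9975%). Since the counts are recovered ones, no count model was used. Reads were tested, with the authors' size factors, by voom and eBayes of limma 3.58.1 (R 4.3.3, prior count 0.5) on the 4 libraries compared, with Benjamini-Hochberg adjustment over all tested genes. Both steps were run on simulated data. For the fit these had the same spread for all genes and few changed genes, unlike the data here. That run therefore cannot show how the test does with many changed genes or with uneven libraries. With 2 libraries a group an exact permutation test cannot pass 0.05. Floors of 3 reads cover counting error only. Figures were drawn with matplotlib 3.10.9.

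The members and the 29 gene lists were chosen with earlier results of these data known. Genes named were the 10 largest rises and falls (mean of at least 100, libraries of a group under 2-fold apart, groups not overlapping), the 3 largest changes each way in each list, 10 genes of the study or earlier work, and the 5 largest differences each way in each direct comparison. Other list members were named after their values were seen, and some items are not reported here. RefSeq promoters were matched by symbol. Alternatives were another scaling, pseudocount, filter and spread, a fold minimum and leaving out each library.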

Additional observations from a re-analysis of the deposited data

Results flagged for a closer look

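The genes with the largest directly tested differences between SDS day 0 and each other treatment or time, by the limits on mean and spread given above, are listed here as log2 differences, with positive values where SDS day 0 was higher. They were picked for their size, so the values are a description. Against PMD-Sen day 1 the highest were ADM2 at 6.86, CTH at 5.30, DDIT3 at 5.18, ATF3 at 5.14 and TRIB3 at 4.87, all of them genes of the stress response. The lowest were FBL at -4.95, RAB7B at -4.24, FAM111B at -4.17 and GBP1 at -3.84. FBL is one of the 58 genes whose libraries within a group were often over 4-fold apart, and it was at 646 and 43.8 in the untreated libraries.

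Against DDR-Sen day 0 the highest were INHBE at 8.87, PAPPA2 at 5.58, ADM2 at 5.11, CTH at 4.86 and CDC6 at 4.80. The lowest were ABCA1 at -5.40, KCNK2 at -4.81, LRRN3 at -4.72, SHROOM2 at -4.65 and ANK1 at -4.63.

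Against Ca-Sen day 0 the highest were PAPPA2 at 6.56, CXCL2 at 6.50, PSMC4 at 6.06, BHLHA15 at 4.97 and RPLP0P2 at 4.89. PSMC4 is also one of the 58 genes named, and RPLP0P2 can share reads with RPLP0. The lowest were PRSS35 at -7.64, GBP2 at -5.81, METTL7A at -5.10, ITGB8 at -5.08 and INMT at -4.92.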

How the results depend on the processing

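Of 52 alternatives of the 4 counts of called genes, 48 lay within 1.5 times of the reported count. The other 4 asked for a log2 fold change of at least 1 and left 2588 genes against Untreated, 2790 against PMD-Sen day 1, 2668 against DDR-Sen day 0 and 3802 against Ca-Sen day 0, fewer by construction. Without 1 library the counts ran from 6138 to 6604 against Untreated, 6811 to 7668 against PMD-Sen day 1, 5405 to 7579 against DDR-Sen day 0 and 8382 to 9082 against Ca-Sen day 0, with the lone library of a group assumed to vary like the other pair. For 156 named genes 7236 of 7564 values kept their side of the threshold and, where they passed, their direction. Of the rest, 267 no longer passed, 58 newly passed and 3 changed sign while passing in the main fit or the alternative. Sign changes of values that passed in neither fit are among the 7236. Against Untreated 46 genes lost a call under at least 1 alternative, in 83 values, of which 38 fell under the fold minimum and 30 were lost without 1 library, the latter in 13 genes, ATF5 among them. PSMB3 against PMD-Sen day 1 was -2.59 without the smaller and 1.27 without the larger PMD-Sen day 0 library. MMP1 against DDR-Sen day 0 was 0.284 without the larger and -0.281 without the smaller DDR-Sen day 0 library, and SQSTM1 against Ca-Sen day 0 was -2.77 and 0.938 without the larger and the smaller Ca-Sen day 0 library. The cause was not tested. Leaving out the 58 genes with uneven libraries gave 7538 calls against Untreated, and including the genes of several splits gave 7404. Both alternatives were chosen after seeing the data. No paired analysis was possible because the recovered libraries carry no replicate number. At 15032808 to 23249427 reads in the untreated and SDS day 0 libraries, genes at a few reads have wide errors. The DXR libraries held 51543579 and 45333667 reads, those of KCl 51039552 and 28371762 and those of SDS day 1 34997011 and 19182020. The DXR libraries lay a median of 0.110 apart on the log2 scale, with a median chi-square of 4.33 against 0.455 for sampling alone.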
